A study of Saccharomyces cerevisiae with 3 samples.

Results

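The comparison described here sets the array titled Y10 against the array titled G0, which are 2 of the 3 arrays of a budding yeast (Saccharomyces cerevisiae) series in which cells were moved quickly off a fermentable carbon source and onto a nonfermentable one. Both were chosen by their titles. Each array was hybridised with RNA from the polysome fraction (named Poly, in Cy5) and RNA from the mRNP fraction (in Cy3) of 1 sample. The labels annotate all 3 arrays as stress by nutrient limitation, and they give no strain, medium or unit of time. The letters and numbers in the titles are not explained either, so Y10, Y5 and G0 are used as names. Reading G0 as cells before the move and Y10 as the later of the cells after it is likely from the series title, but it is not stated.

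An mRNA that is being translated carries several ribosomes and sediments with the polysomes, whereas an mRNA that is bound by proteins but not by ribosomes stays in the lighter mRNP fraction. When budding yeast loses glucose, translation initiation is known to slow within minutes and polysomes run off, and afterwards mRNAs return to polysomes unequally. Ribosomal protein mRNAs are a large share of the mRNA of growing yeast, and their use is known to follow carbon supply. A ratio of the fractions therefore describes how an mRNA is shared between them, not how much of it there is.

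Values below are ratios in log2 units after each array was centred on its median, so 0 is the middle of an array and a shift of all mRNAs together cannot be seen. The direction is likely polysome over mRNP, because the images were kept at the Stanford Microarray Database, whose log ratios are by custom log2 of red over green. Neither the base of the logarithm nor the direction is given with the values, and with the opposite direction every sign below turns. Before centring, the median was 0.071 on Y10 and 0.0735 on G0. The row numbers of Y10 did not match those of the other arrays and were renumbered, after which 6008 spots on Y10 and 8700 on G0 could be used. The renumbered Y10 correlated across spots with the third array, Y5, at r = 0.463, and a shift of 1 row of 12 spots brought this to -0.010 or -0.014. Over the 16 rows of spots that were kept, r with Y5 ran from 0.193 to 0.629. Every Y10 value rests on that inferred numbering.

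In all, 4427 genes had a ratio on both arrays. Of these 288 were at least 1 log2 unit higher on Y10 than on G0 (6.51%) and 537 were at least 1 lower (12.1%). Of all genes 48.0% lay above 0 by difference and 51.9% below. After quantile normalization 46.5% of these calls were higher, against 34.9%. With 1 array on each side no test of the difference between the samples was possible. The error between repeat spots was the only one that could be measured. Among 449 genes with 2 spots on both arrays it gave an SD of 0.632 for a difference from 1 spot, and that error alone passed 1 log2 unit in 9.13% of them. The number of genes past 1 log2 unit is itself no measure of a response. Outside the first sector (block of spots), the deposited row order of Y10 pairs a gene with the Y10 value of an unrelated spot. In that order 5083 genes could be compared, and 8.56% were at least 1 higher and 15.5% at least 1 lower. List medians given below for the deposited row order are over the genes compared in that order.

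The ratios were spread more narrowly on Y10 than on G0 (SD over genes 0.598 on Y10 and 0.695 on G0) and correlated only weakly (r = 0.221 across genes, which share their array and are not independent). Most large differences were therefore those of genes far from the middle on G0. In the fifth of genes with the highest G0 ratios, the median was 0.17 on Y10 and 0.95 on G0, and 366 of 885 genes were at least 1 lower on Y10. In the fifth with the lowest G0 ratios, the median was -0.12 on Y10 and -0.77 on G0, and 225 of 886 genes were at least 1 higher. Of the 537 lower genes, 215 lay within 0.5 log2 units of the Y10 median, and 172 lay at or below -1 on Y10. Of the 288 higher genes, 189 lay within 0.5 of the Y10 median and 46 lay at or above 1 on Y10. For this reason the ratio on each array is given below before the difference.

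**Figure D1:**
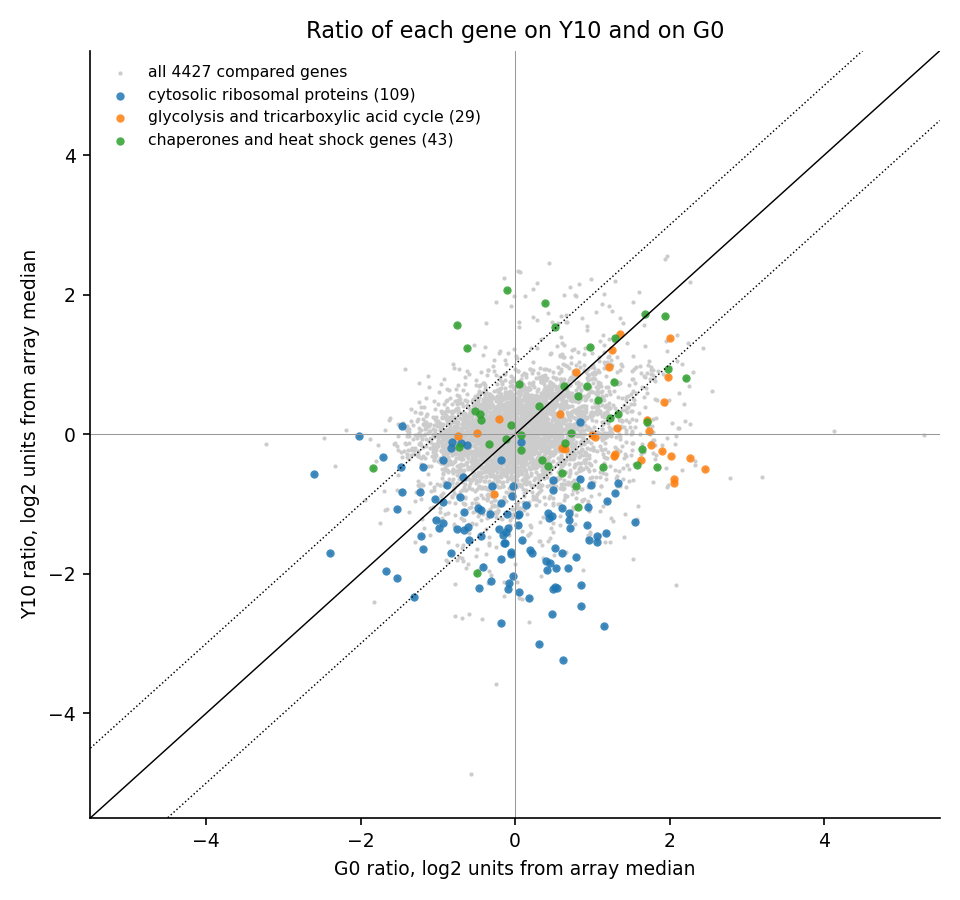
Ratio of each of 4427 genes on G0 (horizontal axis) and on Y10 (vertical axis), in log2 units from the median of each array. The solid line marks equal ratios and the dotted lines 1 log2 unit of difference. Ribosomal protein genes (blue, 109 genes) spread downward to -3.24 on Y10, glycolysis and tricarboxylic acid cycle genes (orange, 29) lie to the right on G0, and several chaperone and heat shock genes (green, 43) lie high on Y10.

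Cytosolic ribosomal protein mRNAs stood apart on Y10 itself. Of 109 compared, 107 lay below the array median on Y10 and 60 on G0, and 77 lay at or below -1 on Y10 against 17 on G0. Ribosomal protein genes were 2.46% of the genes compared, and they filled 43 of the 100 lowest places on Y10 and 13 of the 100 lowest on G0. They held none of the 100 highest places on either array. Of the 109, 66 were at least 1 log2 unit lower on Y10 than on G0, against 12.1% of all genes. At least 1 higher were 5, namely 4 of the 60S (6.45%) and 1 of the 40S subunit (2.13%), against 6.51% of all genes. On Y5 ribosomal protein genes were lower than on G0 as well, with median differences of -1.58 (60S) and -1.43 (40S).

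The proteins of both ribosomal subunits were low on Y10. The 62 proteins of the 60S subunit, which holds the peptidyl transferase centre, had a median of -1.35 on Y10 and -0.03 on G0. Of these 40 were at least 1 lower (64.5%, against 12.1% of all genes). The 47 proteins of the 40S subunit, which decodes the mRNA, had a median of -1.17 on Y10 and -0.14 on G0, and 26 were at least 1 lower (55.3%). With Y10 in its deposited row order the median differences were 0.07 for the 60S and -0.08 for the 40S subunit, against -1.61 and -1.04 after renumbering.

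The lowest members of the 60S list were RPL20B, at -3.24 on Y10 and 0.62 on G0, RPL13A, at -3.01 and 0.31, and RPL7A, at -2.74 and 1.15. RPP0, the base of the ribosomal stalk, lay at -1.25 on Y10 and 1.55 on G0. Among 40S proteins RPS1B lay at -2.16 on Y10 and 0.86 on G0, and RPS9B at -2.22 and 0.49. ASC1, the scaffold protein on the head of the 40S subunit, lay at -1.46 on Y10 and 1.06 on G0, a difference of -2.51. Each of these genes had 1 spot on each array.

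Most ribosomal proteins of this yeast are encoded by a pair of gene copies. For 38 pairs both copies were compared, and the median gap between the differences of the 2 copies was 0.583 log2 units. In 18 pairs both copies were at least 1 lower on Y10, in 8 pairs 1 copy was and in 12 pairs neither. The copies of RPL12 differed from G0 by -2.52 (RPL12A) and -2.46 (RPL12B), and those of RPL6 by -2.51 (RPL6A) and -2.36 (RPL6B). Copies are near-identical in sequence and may bind each other's mRNA on such an array, so like values of 2 copies are not separate measurements.

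In 4 pairs the copies had differences of opposite sign, and only RPL26 had copies over 2 log2 units apart. RPL26A lay at -2.10 on Y10 and -0.32 on G0, and RPL26B at -0.15 on Y10 and -0.62 on G0. RPS30A lay at -0.80 on Y10 and 0.49 on G0, against RPS30B at -1.71 on Y10 and -2.40 on G0. The other pairs of this kind were RPS10 and RPL33, with differences of -0.91 for RPS10A, 0.73 for RPS10B, 0.63 for RPL33A and -0.46 for RPL33B.

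**Figure D2:**
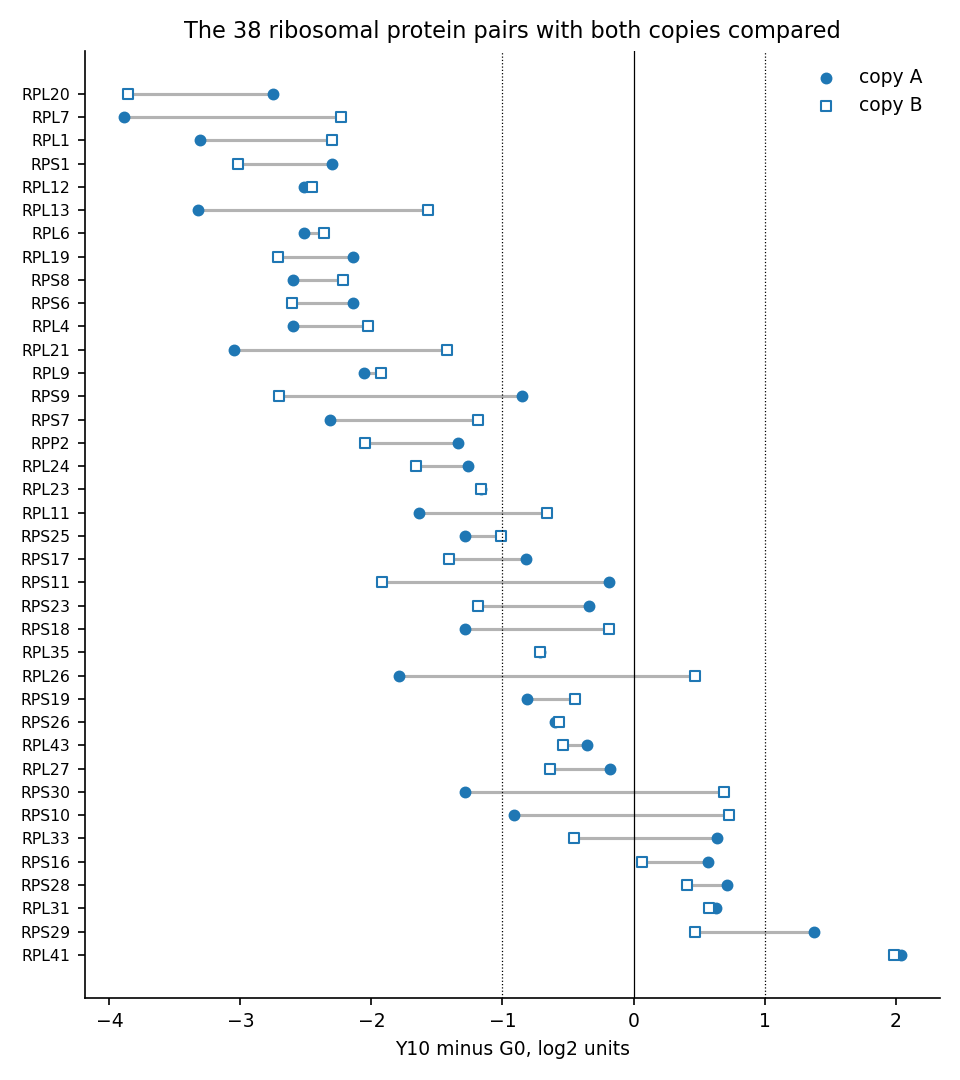
Y10 minus G0 in log2 units (horizontal axis) for copy A (filled circles) and copy B (open squares) of the 38 ribosomal protein pairs with both copies compared, with dotted lines at 1 log2 unit in either direction. In 18 pairs both copies lie at or left of -1, and the copies of RPL41 lie farthest right, at 2.04 and 1.99.

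The 18 ribosomal protein genes above 0 by difference were 10 of the 60S and 8 of the 40S subunit. They included genes of very short and of longer listed length, which can include introns. RPL41A and RPL41B, whose listed length of 78 bases is the shortest of the genes compared, were measured by 2 spots each. The RPL41A spots read -0.69 and -0.45 on Y10 against -2.36 and -2.86 on G0, and the RPL41B spots -0.39 and 0.33 on Y10 against -2.10 and -1.93 on G0. RPS29A lay at -0.33 on Y10 and -1.71 on G0, and RPS28A at -0.11 and -0.82. The 7 ribosomal protein genes listed under 300 bases had a median of -0.57 on Y10 and -1.53 on G0. The other 102, some of which may be shorter than that without introns, had -1.36 on Y10 and -0.03 on G0. The part of length in these differences was not tested. Of the genes listed as longer, RPL22B (690 bases) lay at 0.12 on Y10 and -1.47 on G0. RPL36A (766 bases, not a multiple of 3) lay at -0.47 and -1.47. RPL31A and RPL31B were also above 0 by difference, at 0.63 and 0.58.

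Length was related to the ratio on both arrays over all genes, where Spearman's rho with listed length was 0.344 on Y10 and 0.314 on G0. The relation to the difference was close to none (rho = -0.039). The shortest genes, 78 to 297 bases, had a median of -0.23 on Y10 and -0.62 on G0, and 14 of 68 were at least 1 higher on Y10. Genes of 2700 bases or more had a median of 0.27 on Y10 and 0.36 on G0. Longer mRNAs can hold more ribosomes and are known to sediment in heavier fractions. Whether this bears on the ratio of polysomes to mRNP here was not tested.

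**Figure D3:**
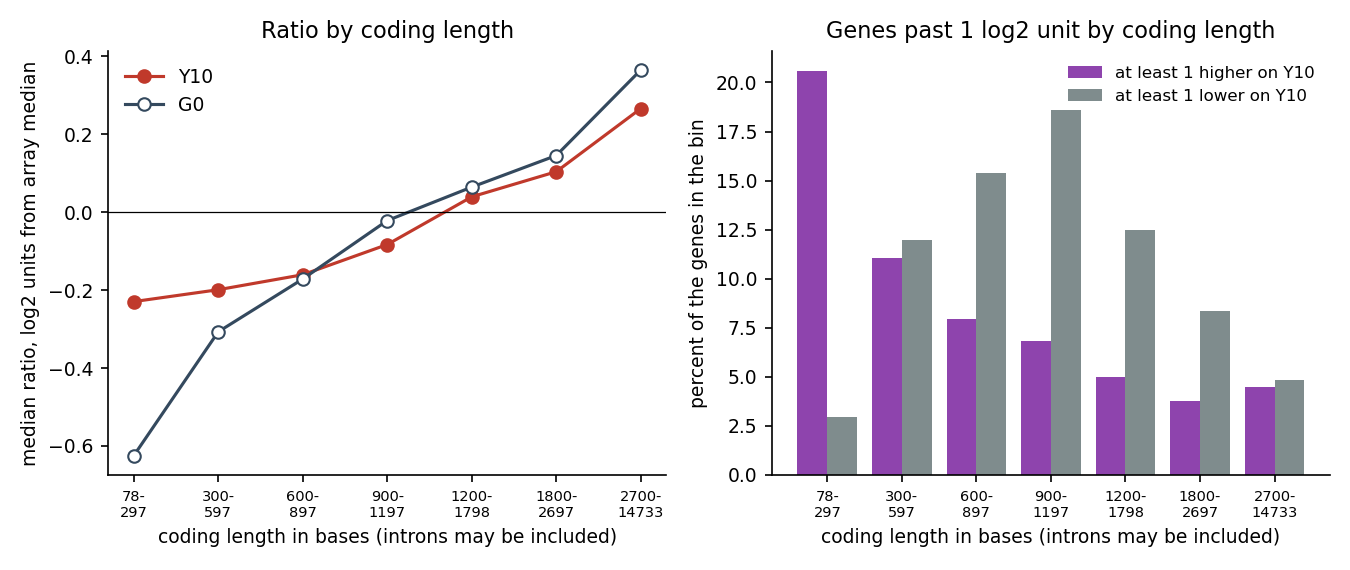
Left, median ratio on Y10 (filled) and on G0 (open), in log2 units from the array median, for genes in 7 bins of listed length. Right, the percent of genes in each bin at least 1 log2 unit higher (purple) or lower (grey) on Y10. In the shortest bin 20.6% were higher and 2.94% lower, and in the bin of 900 to 1197 bases 6.84% were higher and 18.6% lower.

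The machinery that builds ribosomes differed from the ribosomal proteins. Assembly factors of the 40S subunit (42 genes) had a median of 0.26 on Y10 and 0.17 on G0, and those of the 60S subunit (56 genes) 0.08 on Y10 and -0.13 on G0. ROK1, an RNA helicase of 40S assembly, lay at 1.13 on Y10 and -0.42 on G0. RPF1, of 60S assembly, lay at 0.72 on Y10 and -0.64 on G0, and RRP8, a methyltransferase for ribosomal RNA, at 0.92 and -0.36. PUF6, also of 60S assembly, averaged 0.19 on Y10 and -0.99 on G0 over 2 spots. On the low side TSR1, of 40S maturation, lay at -0.69 on Y10 and 0.75 on G0, and SDA1, of 60S assembly and export, at -0.66 and 0.76. At least 1 higher were 4 of the 40S factors and 6 of the 60S factors, which is 9.52% and 10.7%, against 6.51% of all genes. RNA polymerases I and III, which make ribosomal and transfer RNA, had a list median of -0.03 on Y10 and -0.18 on G0, with none of 30 genes at least 1 lower. At least 1 higher were 2 of them (6.67%, near the 6.51% of all genes), RRN9, at 0.10 on Y10 and -1.16 on G0, and RET1, at 0.50 and -0.71.

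Of 13 elongation and termination factors 8 were at least 1 lower (61.5%, against 12.1% of all genes), and the list median was -0.29 on Y10 and 0.88 on G0. TEF1 and TEF2 encode the same protein, elongation factor 1 alpha. TEF1 lay at -1.47 on Y10 and 1.41 on G0, and TEF2 at -1.95 on Y10 and 0.88 on G0. HYP2, the factor known as eIF5A, lay at -1.21 on Y10 and 1.24 on G0. EFT2, elongation factor 2, lay at 0.15 on Y10 and 2.26 on G0. SUP35, a release factor, lay at 0.86 on Y10 and 1.01 on G0. The deposited row order of Y10 gave a list median difference of -0.99, against -1.26 after renumbering.

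Of 29 initiation factors 5 were at least 1 lower (17.2%, against 12.1% of all genes) and none at least 1 higher, with medians of 0.12 on Y10 and 0.54 on G0. PAB1, the poly(A)-binding protein, lay at -0.55 on Y10 and 1.10 on G0, and CDC33, the cap-binding protein eIF4E, at -0.90 and 0.65. GCN2, the kinase that restrains initiation when amino acids run short, lay at -0.89 on Y10 and 0.67 on G0. RPG1, a subunit of eIF3, was higher, at 1.27 on Y10 and 0.54 on G0, and DED1, a helicase of scanning, lay at 1.10 and 0.73. GCN4, which switches on genes for making amino acids and whose mRNA is controlled by upstream reading frames, lay at -0.23 on Y10, 1.32 on Y5 and -0.93 on G0.

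In lower glycolysis the median was -0.24 on Y10 and 1.91 on G0, and 4 of 7 compared genes were at least 1 lower (57.1%, against 12.1% of all genes). ENO1, an enolase, had 2 spots, at -0.41 and -0.27 on Y10 against 2.26 and 2.28 on G0. PGK1, phosphoglycerate kinase, lay at -0.31 on Y10 and 2.02 on G0. CDC19, the main pyruvate kinase, lay at -0.50 on Y10 and 2.46 on G0, and TDH3, a glyceraldehyde phosphate dehydrogenase, at -0.24 and 1.91. PYK2, the pyruvate kinase of slow-growing cells, lay at 0.29 on Y10 and 0.58 on G0, and GPM2 and GPM3, relatives of phosphoglycerate mutase, were above 0 by difference, at 0.43 and 0.71.

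In upper glycolysis 4 of 9 genes were at least 1 lower (44.4%, against 12.1% of all genes). TPI1, triose phosphate isomerase, lay at -0.70 on Y10 and 2.06 on G0, and GLK1, glucokinase, at -0.64 and 2.06. HXK2, the main hexokinase of cells on glucose, was high on both arrays, at 1.44 on Y10 and 1.36 on G0. PFK2, a phosphofructokinase subunit, lay at 0.97 on Y10 and 1.22 on G0, and PFK1, the other subunit, lay at 1.39 on Y10 with a difference of -0.61 from G0. The list median was 0.82 on Y10, the only one of the 63 lists to reach 0.5 there, and 1.71 on G0. Its median difference of -0.61 was -0.23 after quantile normalization and 0.0051 with both arrays scaled to one spread. With Y10 in its deposited row order it was -1.51.

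Pyruvate dehydrogenase feeds pyruvate into the mitochondrial cycle. In its list of 9 genes, 3 were at least 1 lower (33.3%, against 12.1% of all genes) and 1 at least 1 higher (11.1%, against 6.51%). PDA1 lay at -0.52 on Y10 and 2.16 on G0, PDB1 at -0.05 and 1.97, and the 2 spots of LAT1 at 0.43 and -0.19 on Y10 against 1.94 and 1.61 on G0. PDX1, another subunit of the complex, lay at 0.07 on Y10 and 0.54 on G0. MPC3, a mitochondrial pyruvate carrier subunit of respiring cells, ran the other way, at 0.06 on Y10 and -1.40 on G0. In the tricarboxylic acid cycle the median was -0.16 on Y10 and 1.28 on G0, with 9 of 13 genes at least 1 lower (69.2%, against 12.1% of all genes). SDH4, of succinate dehydrogenase, lay at 0.04 on Y10 and 1.74 on G0, and FUM1, fumarase, at -0.31 and 1.28. CIT1, citrate synthase, differed least of the 13, at 1.20 on Y10 and 1.26 on G0.

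In the pentose phosphate pathway TAL1, transaldolase, lay at -2.17 on Y10 and 2.08 on G0, and so far from the middle on both arrays. ZWF1, glucose-6-phosphate dehydrogenase, lay at -0.49 on Y10 and 1.96 on G0. GND1, the next dehydrogenase of the pathway, was higher, at 1.30 on Y10 and 0.61 on G0. ADH1, the main alcohol dehydrogenase of fermentation, lay at 0.22 on Y10 and 1.79 on G0. ALD6, an acetaldehyde dehydrogenase of the cytosol, lay at 0.91 on Y10 and 0.03 on G0.

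Of 11 genes of gluconeogenesis and the glyoxylate cycle 2 were at least 1 higher (18.2%, against 6.51% of all genes). At least 1 lower was 1 (9.09%, against 12.1%), and the median was 0.06 on Y10 and -0.38 on G0. ICL1, isocitrate lyase of the glyoxylate cycle, lay at -0.09 on Y10 and -0.82 on G0. FBP1, of gluconeogenesis, lay at 0.18 on Y10 and -0.83 on G0 over 2 spots, and MDH2, a cytosolic malate dehydrogenase of the same pathway, at 0.70 and -0.38. MDH3, the peroxisomal form, was low at -1.47 on Y10, against 1.06 on G0, and IDP3, another peroxisomal dehydrogenase, lay at -1.14 and -0.91. Of 14 genes of glycerol uptake, use and synthesis 2 were at least 1 lower (14.3%, near the 12.1% of all genes). The median was -0.10 on Y10 and 0.26 on G0, and the median difference was -0.57, against -0.79 in the deposited row order. GUT1, glycerol kinase, lay at 0.24 on Y10 and 0.03 on G0, and GUT2, the next enzyme of glycerol use, at -0.71 and 0.05. STL1, a glycerol transporter, lay at -0.71 on Y10 and 0.15 on G0. GPD1, of glycerol synthesis, lay at 0.87 on Y10 and 1.91 on G0.

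For lists that were high on G0, the deposited row order of Y10 gave differences as well. With Y10 in its deposited row order, lower glycolysis had a median difference of -2.24, the tricarboxylic acid cycle -1.07, amino acid biosynthesis -0.86 and aminoacyl-tRNA synthetases -1.20. After renumbering the same lists had -2.14, -1.23, -0.87 and -0.85. In that order 16 of 63 lists were lower by 0.5 or more in the median, and after renumbering 14 were, 10 of which had a G0 median of at least 0.5. Only both ribosomal protein lists had a Y10 median at or below -0.5. After quantile normalization, and also with both arrays scaled to one spread, 6 of the 14 fell short of 0.5. These were the aminoacyl-tRNA synthetases (-0.35 and -0.40 under these settings), the proteasome (-0.34 and -0.39), upper glycolysis, vesicle coats (-0.47 and -0.48), protein glycosylation (-0.43 and -0.47) and glycerol genes (-0.48 and -0.49). The glycerol list moved most with sector centring, to -0.23 against -0.57.

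**Figure D4:**
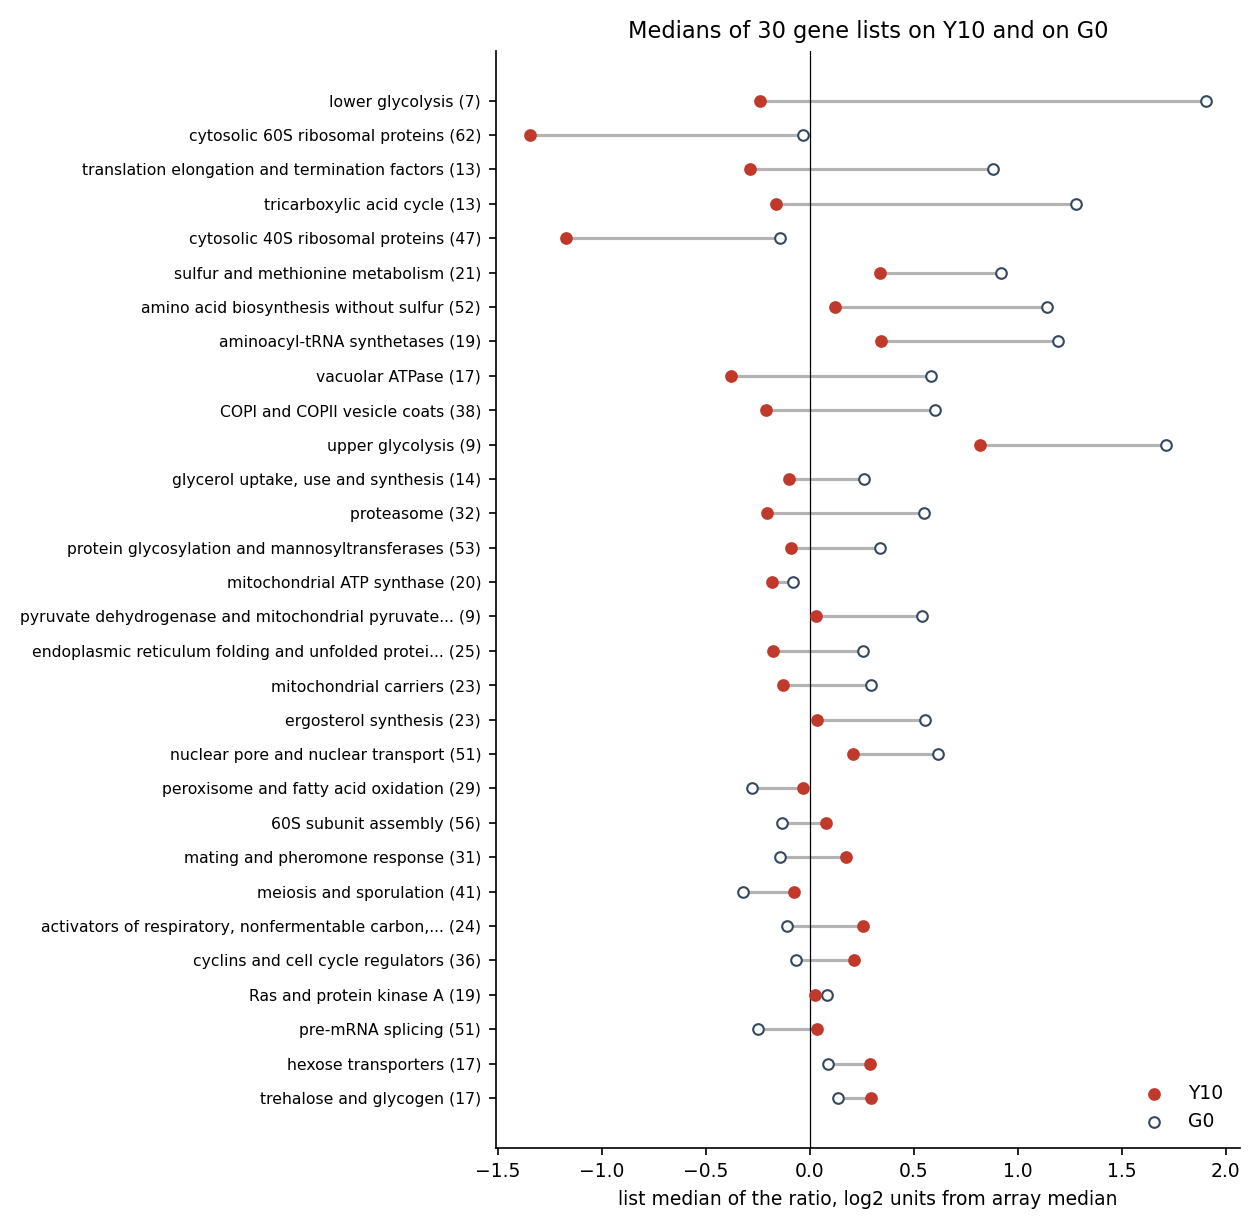
Median ratio of 30 of the 63 gene lists on Y10 (filled) and on G0 (open), in log2 units from the array median, with the number of compared genes in parentheses. Shown are the 20 lists with the lowest and the 10 with the highest median difference. Both ribosomal protein lists lie below -1 on Y10, whereas lower glycolysis lies at -0.24 on Y10 and 1.91 on G0.

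Synthesis of amino acids gave 22 of 52 genes at least 1 lower on Y10 (42.3%, against 12.1% of all genes) and 1 at least 1 higher. HOM2, of the threonine and methionine pathway, lay at -0.72 on Y10 and 1.98 on G0, and LYS9, of lysine synthesis, at -1.24 and 1.27. HIS4, of histidine synthesis, was high on both arrays, at 1.76 on Y10 and 1.25 on G0. In sulfur metabolism 11 of 21 genes were at least 1 lower (52.4%), and the median difference of -1.03 was -0.57 with both arrays scaled to one spread. MET17, which makes homocysteine, lay at 0.60 on Y10 and 2.12 on G0, and SAM2, an S-adenosylmethionine synthetase, at -0.44 and 1.45. ATG41, formerly ICY2, whose product takes part in autophagy, was the highest of that list by difference, at 0.93 on Y10, 0.70 on Y5 and -0.72 on G0. In nitrogen assimilation and transport 2 of 38 genes were at least 1 higher (5.26%) and 4 at least 1 lower (10.5%), near the 6.51% and 12.1% of all genes. GLN1, glutamine synthetase, lay at 1.90 on Y10 and -0.24 on G0, and MEP2, an ammonium transporter, at 1.54 and 0.05. UGA4, a permease for gamma-aminobutyrate, lay at -2.37 on Y10, 2.23 on Y5 and 0.09 on G0, with 1 spot on Y10 and on G0.

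Chaperone and heat shock mRNAs differed in both directions. Among the Hsp70, Hsp90 and ribosome-bound chaperones, 3 of 22 genes were at least 1 higher (13.6%, against 6.51% of all genes) and 7 at least 1 lower (31.8%, against 12.1%). Among the stress-induced heat shock genes, 3 of 21 were at least 1 higher (14.3%) and 5 at least 1 lower (23.8%). SSZ1 and ZUO1, the partners of the ribosome-associated complex, lay at -0.44 and -0.47 on Y10, against 1.58 and 1.13 on G0. SSB2, a ribosome-bound Hsp70, lay at -0.21 on Y10 and 1.65 on G0, and HSC82, the constitutive Hsp90, at 0.17 and 1.71.

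SSB1, the near-identical relative of SSB2, lay at -0.06 on Y10 and -0.11 on G0, and each may bind the mRNA of the other. Some members of both lists were high on Y10. SIS1, an Hsp40, lay at 1.89 on Y10 and 0.39 on G0. FES1, a nucleotide exchange factor for Hsp70, lay at 1.24 on Y10 and -0.63 on G0, and SSA4, an inducible Hsp70, at 1.54 and 0.52. BTN2, which sorts misfolded proteins, lay at 2.07 on Y10 and -0.11 on G0, and HSP30, a membrane protein of stressed cells, at 1.56 and -0.75. HSP82, the inducible Hsp90, and its partner STI1 were high on both arrays, at 1.69 and 1.72 on Y10 and at 1.94 and 1.68 on G0. HSP12, a membrane-protecting small protein, and GRE3, an aldose reductase, were lower, at -1.04 and -0.47 on Y10, against 0.81 and 1.84 on G0. Other inducible genes were lower as well. SSA3, another inducible Hsp70, lay at -0.55 on Y10 and 0.61 on G0, and HSP32 at -1.99 and -0.50. DDR48, a stress protein, and UBI4, polyubiquitin, lay at 0.94 and 0.30 on Y10, against 1.99 and 1.33 on G0.

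**Figure D5:**
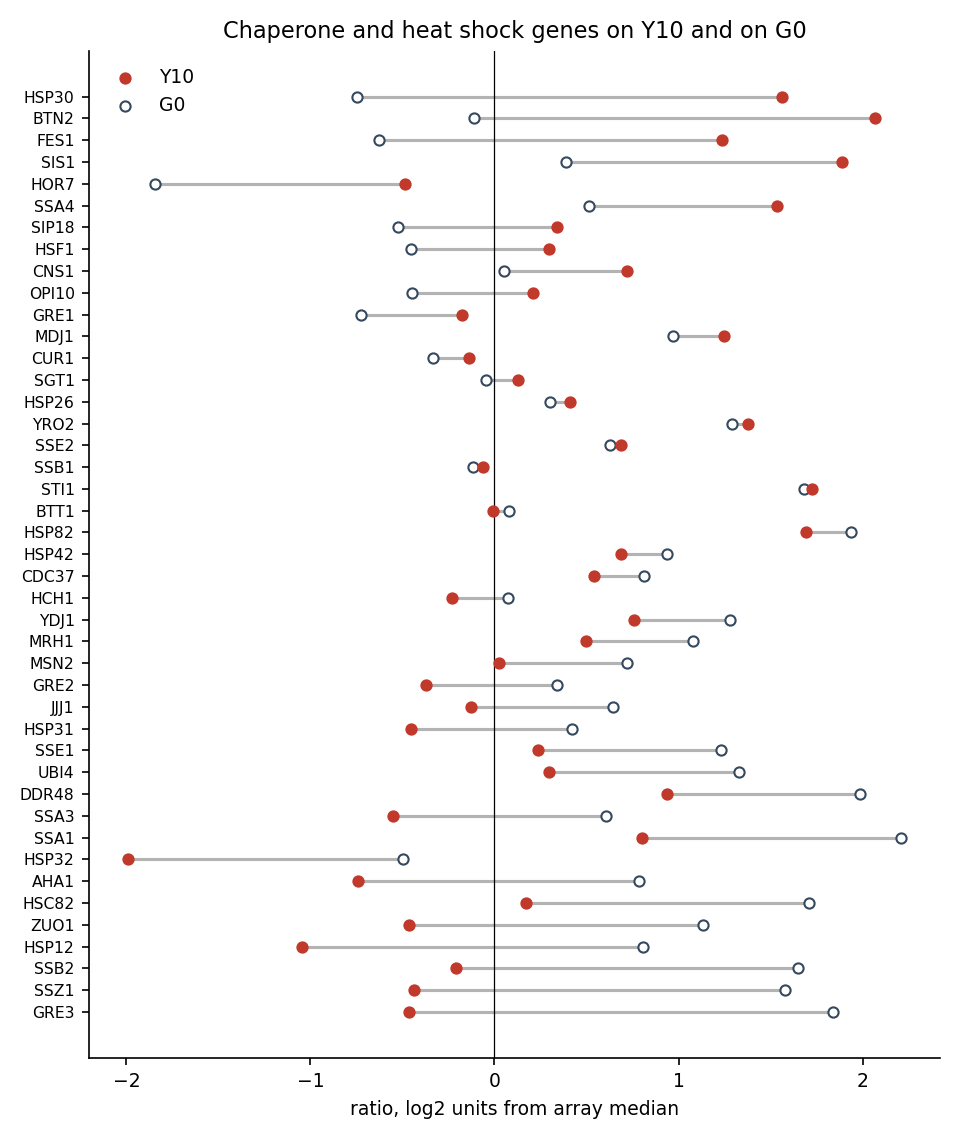
Ratio on Y10 (filled) and on G0 (open), in log2 units from the array median, for the 43 genes of the chaperone and heat shock lists, ordered by Y10 minus G0 with the highest at the top. HSP30, BTN2, FES1 and SIS1 lie right of 1 on Y10, and GRE3, SSZ1 and SSB2 lie right of 1 on G0 and left of 0 on Y10.

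Trehalose and glycogen, the storage carbohydrates, had a median of 0.30 on Y10 and 0.13 on G0. GDB1, the glycogen debranching enzyme, lay at 1.16 on Y10 and -0.21 on G0, and GAC1, which directs a phosphatase to glycogen synthase, at 1.16 and -0.09. TPS2, trehalose phosphatase, was high at 2.01 on Y10 and 1.15 on G0. NTH2, a trehalase, lay at -0.24 on Y10 and 1.06 on G0. The median difference of this list was 0.45, and it ran from -0.31 in the deposited row order to 0.65 with the values read as natural logarithms.

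The hexose transporter list (17 genes) also holds the maltose and related sugar permeases MAL11, MAL31, MPH2 and MPH3. Of the 17, 12 were above 0 by difference, against 48.0% of all genes, and 2 were at least 1 higher (11.8%, against 6.51%). The list median difference was 0.42, against 0.08 in the deposited row order. HXT2, a transporter induced at low glucose, lay at 2.33 on Y10, 0.54 on Y5 and 0.06 on G0. HXT3, of low affinity, lay at 1.74 on Y10 and 0.43 on G0, HXT6 at 1.56 and 0.94 over 2 spots, and HXT7 at 1.11 and 1.20. These genes are close relatives and may bind each other's mRNA on the array.

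In glucose sensing and repression 2 of 26 genes were at least 1 higher (7.69%) and 3 at least 1 lower (11.5%), near the 6.51% and 12.1% of all genes. The median was 0.07 on Y10 and 0.28 on G0. MIG2, a repressor of glucose-repressed genes, had 2 spots, at 0.48 and 0.51 on Y10 against -0.59 and -0.72 on G0. MIG1, its better known relative, lay at 0.02 on Y10 and -0.81 on G0, and NRG2, another repressor, at 0.51 and -0.54. SNF1, the kinase that relieves repression, lay at -0.14 on Y10 and 0.57 on G0. TUP1, the corepressor, was lower, at -0.36 on Y10 and 1.81 on G0. CAT8 and ADR1, activators of genes for nonfermentable carbon, lay at 0.19 and -0.26 on Y10, against -0.33 and -0.35 on G0. TYE7, an activator of glycolytic genes, lay at 0.93 on Y10, 2.11 on Y5 and -1.42 on G0. SFP1, an activator of ribosomal protein genes, lay at 1.06 on Y10 and -0.13 on G0.

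In mitochondria, ATP synthase gave 5 of 20 genes at least 1 lower (25%, against 12.1% of all genes) and 3 at least 1 higher (15%, against 6.51%). ATP1, of the catalytic head, lay at 0.84 on Y10 and 1.67 on G0. ATP16, of the central stalk, lay at -1.54 on Y10 and 1.22 on G0, and ATP15, the smallest stalk subunit, at -0.07 and -1.88. RIP1, the iron-sulfur protein of complex III, lay at -0.15 on Y10 and 1.81 on G0, and COX9, a small subunit of complex IV, at -0.06 and -1.33. In coenzyme Q and heme synthesis 5 of 19 genes were at least 1 lower (26.3%, against 12.1%) and 1 at least 1 higher (5.26%, against 6.51%). COQ5 lay at -1.22 on Y10 and 1.58 on G0, and COQ6 at -1.18 and 0.36. In mitochondrial protein import 6 of 36 genes were at least 1 lower (16.7%, against 12.1%) and 3 at least 1 higher (8.33%, against 6.51%). TIM22, the channel that inserts carrier proteins into the inner membrane, was high on Y10 at 2.25, against -0.14 on G0. TOM22, a receptor of the outer membrane, lay at -1.77 on Y10 and 0.37 on G0. GGC1, a guanine nucleotide carrier, lay at -0.67 on Y10 and 1.48 on G0.

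In the vacuolar ATPase, the proton pump of the vacuole, 15 of 17 genes were below 0 by difference, against 51.9% of all genes, and 7 were at least 1 lower (41.2%, against 12.1%). The list median was -0.38 on Y10 and 0.58 on G0. VMA4 lay at -1.78 on Y10 and 1.53 on G0, VMA6 at -1.03 and 0.81, and VMA16 at -1.17 and 0.58. VMA1, a catalytic subunit, was the highest on both, at 0.69 on Y10 and 2.26 on G0. With Y10 in its deposited row order the list differed by -0.86, against -0.76 after renumbering.

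On the secretory route, 33 of 38 genes of vesicle coats and their cargo receptors were below 0 by difference, against 51.9% of all genes. At least 1 lower were 10 (26.3%, against 12.1%), and none was higher by 1. The list median difference was -0.62, against -0.50 in the deposited row order. SAR1, the small GTPase of COPII coats, lay at -1.68 on Y10 and 0.65 on G0. ERV25 and EMP24, cargo receptors of the same family, lay at -1.40 and -0.68 on Y10, against 0.97 and 1.02 on G0. ERV29, another receptor, had 2 spots at -0.22 and -0.46 on Y10 and 1.25 and 1.14 on G0. ARF1 and ARF2, GTPases of COPI coats, lay at -0.80 and -0.64 on Y10, against 0.75 and 1.40 on G0. SEC16, a scaffold of COPII coats and among the highest differences of the list, lay at 0.09 on Y10 and -0.39 on G0 over 2 spots.

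In protein glycosylation 14 of 53 genes were at least 1 lower (26.4%, against 12.1% of all genes) and 2 at least 1 higher (3.77%, against 6.51%). The list median difference was -0.51, against -0.43 in the deposited row order. OST6, a subunit of oligosaccharyltransferase, lay at -2.64 on Y10 and -0.43 on G0. PMI40, which makes mannose phosphate, lay at -0.16 on Y10 and 1.91 on G0. KRE2, a mannosyltransferase, was high at 1.59 on Y10, against -0.94 on Y5 and 0.55 on G0. HAC1 directs the response to unfolded proteins, and its mRNA is known to be held from translation until it is spliced. It lay at -0.74 on Y10 and 0.42 on G0. ROT2, a glucosidase of the endoplasmic reticulum, lay at -0.34 on Y10 and 1.28 on G0.

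Cell wall and secreted glycoproteins (44 genes) had a median of 0.36 on Y10 and 0.58 on G0, and ran from -0.92 to 2.56 on Y10. Of them 2 were at least 1 higher (4.55%, against 6.51% of all genes) and 6 at least 1 lower (13.6%, against 12.1%). CRH1 and SED1 had the highest ratios of all genes on Y10, 2.56 and 2.51, against 1.97 and 1.94 on G0. CHS1, a chitin synthase, lay at 1.98 on Y10 and 0.78 on G0. GAS1, a glucan-modifying enzyme, was lower, at -0.76 on Y10, 2.18 on Y5 and 1.43 on G0. PMP1, a small regulator of the plasma membrane proton pump, lay at 0.09 on Y10 and 2.11 on G0.

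The actin list (37 genes) had a median of 0.14 on Y10 and 0.60 on G0, and 11 genes were at least 1 lower (29.7%, against 12.1% of all genes). Its median difference was -0.26, against -0.73 in the deposited row order. ACT1, actin, lay at -0.09 on Y10 and 1.80 on G0, and PFY1, profilin, at -1.58 and 0.34. LSB3, of endocytic patches, had 2 spots, at -0.19 and -0.84 on Y10 against 1.20 and 1.39 on G0. Tubulins, septins and spindle genes (38) had a median of -0.07 on Y10 and -0.11 on G0. Of them 5 were at least 1 lower (13.2%, near the 12.1% of all genes) and 2 at least 1 higher (5.26%, against 6.51%). Among the lowest of that list by difference, TUB1 and TUB3, the alpha tubulins, lay at 0.17 and -0.23 on Y10, against 2.03 and 1.52 on G0.

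Of 32 proteasome genes 28 were below 0 by difference, against 51.9% of all genes, and 8 were at least 1 lower (25%, against 12.1%), with a list median difference of -0.55, against -0.66 in the deposited row order. PRE5 and PRE9, subunits of its core, lay at -1.30 and -1.16 on Y10, against 0.58 and 0.73 on G0. PRE2, a catalytic subunit, was alike on both arrays, at 1.36 on Y10 and 1.22 on G0, and RPN4, the transcription factor for proteasome genes, lay at 0.49 and -0.05. In the defence against oxidants 6 of 25 genes were at least 1 lower (24%, against 12.1%) and 1 at least 1 higher (4%, against 6.51%). MXR1, a methionine sulfoxide reductase, lay at -1.03 on Y10 and 1.60 on G0, and PRX1, the mitochondrial peroxiredoxin, at -1.43 and 0.98.

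In the nuclear pore and nuclear transport 9 of 51 genes were at least 1 lower (17.6%, against 12.1% of all genes) and 2 at least 1 higher (3.92%, against 6.51%). The median difference was -0.39, against -0.68 in the deposited row order. SUB2, of mRNA export, lay at -1.44 on Y10 and 0.95 on G0, and RNA1, which activates the Ran GTPase, at -1.44 and 0.16. NIC96, of the nuclear pore, lay at 1.09 on Y10 and 0.02 on G0. RNA polymerase II and Mediator (56 genes) had a median of 0.04 on Y10 and -0.06 on G0. Of them 2 were at least 1 higher (3.57%) and 5 at least 1 lower (8.93%), both below the share of all genes. The lowest by difference were RPB8, at -2.57 on Y10 and -0.60 on G0, and RPB11, at -2.01 and -0.50, and the highest were SOH1 and MED11, with differences of 1.85 and 1.42. The histone list, of core histones with the variant HTZ1 and the linker histone HHO1, was alike on both arrays. Its median was -0.39 on Y10 and -0.39 on G0, with none of 10 genes past 1 log2 unit in either direction. In pre-mRNA splicing 37 of 51 genes were above 0 by difference, against 48.0% of all genes, and 2 were at least 1 higher (3.92%, against 6.51%). The list median difference was 0.32, against 0.34 in the deposited row order. SMX3, a core protein of spliceosomal particles, lay at 0.29 on Y10 and -1.14 on G0. RSE1, of the U2 particle, was lower in both its spots, which read -0.77 and -0.99 on Y10 and 0.40 and 0.51 on G0.

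Genes measured by repeat spots were the only ones whose differences could be checked between spots. Of 456 genes with 2 or more spots shared by both arrays, 262 had differences of 1 sign in every spot. Unrelated spots often share a sign too, so a shared sign alone is weak support. In every spot 5 genes were at least 1 higher and 10 at least 1 lower. By their means, 17 were at least 1 higher and 22 at least 1 lower, while genes with 1 spot on each array passed 1 log2 unit in 20.6% of cases. The 5 higher genes were RPL41A, RPL41B, MIG2, YOR342C, at 0.08 on Y10 and -1.41 on G0, and CLG1, a cyclin-like protein, at 0.33 and -0.85. The lower ones included ENO1, LAT1, LSB3, ERV29, RPS11B, at -1.70 on Y10 and 0.22 on G0, and APE3, an aminopeptidase of the vacuole, at -0.43 and 1.54. PIM1, the Lon protease of mitochondria, lay at 0.31 on Y10 and 1.61 on G0, and ARG7, of arginine synthesis, at 0.02 and 1.51.

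Some of the most extreme differences rest on 1 extreme spot. NVJ3 had the lowest ratio on Y10, -4.87, against -0.24 on Y5 and -0.58 on G0, and PRM6 lay at -3.58 on Y10, -0.10 on Y5 and -0.25 on G0. PUS9, a pseudouridine synthase for transfer RNA, had the lowest difference of all, at -0.01 on Y10 and 5.30 on G0, and so through its G0 spot. COQ1, of coenzyme Q synthesis, lay at 0.04 on Y10 and 4.13 on G0. ROG3, an arrestin-related protein, lay at -0.61 on Y10 and 3.19 on G0, with no value on Y5. The highest difference was that of BOR1, a boron transporter, at -0.14 on Y10 and -3.23 on G0. GLE1, of mRNA export, lay at -0.05 on Y10 and -2.48 on G0. Others were high on Y10 itself. ZPR1, a folding factor for elongation factor 1 alpha, lay at 2.35 on Y10, 1.30 on Y5 and 0.04 on G0. RTS2 lay at 2.46 on Y10, 0.14 on Y5 and 0.43 on G0, and ATG3, a conjugating enzyme of autophagy, at 1.99 on Y10, 0.25 on Y5 and -0.01 on G0.

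Y5 minus G0 shares the G0 array, so both differences move together and their likeness is no result. Side by side with the same list's Y10 difference, Y5 minus G0 had medians of -1.58 for the 60S and -1.43 for the 40S ribosomal proteins, -1.46 for lower glycolysis and -1.07 for the vacuolar ATPase. The values of Y10 minus G0 were -1.61, -1.04, -2.14 and -0.76. The assembly factors were farther from G0 on Y5, with medians of 0.69 for the 40S and 0.86 for the 60S subunit, against Y10 differences of 0.09 and 0.23.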

How the data were processed

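The authors deposited log ratios, taken here as log2, in 8832 rows with 1 value for each array. Their background correction, normalization and spot filter were not given in the sources used here. Signal over background is thus unknown, and precision is limited by how few arrays there are. The platform annotation named 1 gene for 6623 rows and none for 2209, and symbols were updated through RefSeq (assembly R64). The Y10 rows, which end at 8064, were renumbered from sectors of 252 to sectors of 276 spots. The first 192 spots of each sector were kept. The last 60, 1814 with a value, were left out, and their r with Y5 was only 0.130 to 0.308 by row. Kept rows 1 and 2 had r of 0.307 and 0.193, so the cut was by position and not by a threshold of r. Arrays were centred on their medians and spots averaged per gene (Python 3.11.15, pandas 2.3.3, numpy 2.4.6). With 1 array per group no test was run, and the rule of size was 1 log2 unit. A list was called at a median of 0.5 over at least 5 genes. The listed gene lengths are not coding lengths for every gene and can include introns. Of them 96.8% are multiples of 3, and that of RPL36A, 766 bases, is not.

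The 63 gene lists, the renumbering and the rules were chosen with earlier results of these data known. The text names a part of the genes given by this rule: the 2 highest and 2 lowest differences of each list (4 each from 30 genes up), the 15 highest and lowest of all, the 10 highest and lowest of those whose repeat spots share a sign, ribosomal protein copies 2 log2 units apart, and 9 regulators and controls such as GCN4 and ACT1. Other genes were named after their values were seen, to fill in a pathway. The calculation was run on simulated data laid out by the same numbering, so this could not test the inferred numbering of Y10.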

Additional observations from a re-analysis of the deposited data

How the results depend on the processing

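The 288 higher and 537 lower genes stayed within 1.5 times of these counts under scaling to one spread, sector centring, the same spots on both arrays, genes on all 3 arrays, trimming of the outer 0.5% of values, the last 60 spots added, and, chosen after seeing the data, without the first 2 rows of each sector. Quantile normalization gave 370 and 425, so that 46.5% of the calls were higher against 34.9%. The deposited row numbers gave 435 higher genes of 5083, and genes with 2 or more spots 17 higher and 21 lower of 457. Read as natural logarithms, also chosen after seeing the data, the values gave 621 and 880. Of the lists, 14 were lower and 0 higher by 0.5. Quantile normalization gave 8 lower and 2 higher (hexose transporters and trehalose and glycogen), natural logarithms 23 and 2, and genes with 2 or more spots 1 and 1 of 20 lists. Upper glycolysis turned to 0.0051 when scaled to one spread, and the 60S ribosomal proteins to 0.0705 by deposited row numbers. ORC4 turned to -0.57 with the last 60 spots, and ENA1 to -0.23 and OST5 to 0.17 without the outer 0.5%, where fewer spots remained. Otherwise the cause was not tested. Single genes were not recomputed by deposited row numbers, since most genes would then carry another spot's value. Sector medians of the difference ran from -0.69 to 0.57 over 32 sectors. No paired analysis was possible because each group has 1 array. No replicate could be left out.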

Other observations

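In the mating and pheromone response 22 of 31 genes were above 0 by difference, against 48.0% of all genes, and 4 were at least 1 higher (12.9%, against 6.51% of all genes). The list median difference was 0.26, against 0.19 with Y10 in its deposited row order. KSS1, a kinase of filamentous growth and mating, lay at 1.60 on Y10 and -0.37 on G0, and STE5, the scaffold of the pheromone pathway, at 0.62 and -0.47. MFA1, the a-factor precursor, lay at -0.22 on Y10 and -1.39 on G0. Among cyclins and cell cycle regulators 26 of 36 were above 0 and 3 were at least 1 higher (8.33%). Their median difference was 0.29, against -0.08 in the deposited row order. The 2 spots of CLN1, a cyclin of the start of the cycle, averaged 0.36 on Y10 and -0.45 on G0, and SWI5, a transcription factor of late mitosis, lay at -0.25 and 0.81. In DNA replication 4 of 35 genes were at least 1 higher (11.4%, against 6.51% of all genes) and 4 at least 1 lower (11.4%, against 12.1%). The helicase subunits MCM6 and MCM4 lay at -0.92 and -0.65 on Y10, against 0.78 and 0.81 on G0, and PSF1, of the GINS complex, lay at 0.39 on Y10 and -1.18 on G0.

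Among vacuolar proteases and autophagy genes 9 of 30 were at least 1 lower (30%, against 12.1% of all genes) and 3 at least 1 higher (10%, against 6.51%). ATG9, a membrane protein that seeds autophagosomes, lay at 2.12 on Y10, 0.00 on Y5 and 0.71 on G0. ATG2, a lipid transfer protein, lay at 0.28 on Y10 and -0.89 on G0. ATG12, a ubiquitin-like protein, lay at -1.88 on Y10 and -0.42 on G0. OLE1, the fatty acid desaturase, lay at 0.86 on Y10 and -0.60 on G0, SUR1, of sphingolipid synthesis, at 1.07 and -0.27, and ERG4, of the last step of ergosterol synthesis, at -0.75 and 1.97. Peroxisome genes were above 0 in 18 of 29 cases, and their median difference was 0.19, against 0.31 in the deposited row order. At least 1 higher and at least 1 lower was 1 gene each (3.45%), namely PEX21 (0.25 on Y10 and -0.89 on G0) and CAT2, carnitine acetyltransferase (-1.92 on Y10 and -0.64 on G0).

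PMA1, the plasma membrane proton pump and 1 of the 10 highest genes on Y10, was chosen after its values were seen and lay at 2.19 on Y10 and 2.27 on G0.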
